A study of Mus musculus with 4 samples.

Results

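Chemokine transcripts were compared between large peritoneal macrophages of control mice and of mice with a deletion of *Rxra*. The members were taken by name: *Ccl2*, *Ccl3*, *Ccl4*, *Ccl6*, *Ccl7*, *Ccl9*, *Ccl24*, *Cxcl2*, *Cxcl13* and *Pf4*. Of these 10 genes, 9 were among the 18364 genes of the deposited table, and *Ccl7* was not analysed here. RNA-seq was made from macrophages sorted from the peritoneal cavity of C57BL/6 mice at 8 weeks of age as F4/80-positive, MHCII-negative, CD102-positive cells, with a second sort that gave a stated purity of 99%. There were 2 libraries per genotype. The WT libraries came from mice labelled wild type, which the methods describe as *Rxra* fl/fl littermates, so that their cells carried the floxed allele without Cre. The Rxra-KO libraries came from mice labelled *Rxra*-/-, made with *LysM* Cre, which is expressed from the lysozyme 2 locus in macrophages and other myeloid cells and is not confined to the peritoneum. The labels do not say whether the 2 libraries of a genotype came from separate mice or from pools, so the spread between them may be technical. The limma *p* values rest mostly on a variance pooled over genes of like level, with 227 prior and 2 residual degrees of freedom. They therefore do not measure the spread of a gene between these libraries alone.

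RXRα is a nuclear receptor that binds DNA as a homodimer or with partner receptors, and the purpose of the comparison was to find which transcripts of these macrophages depend on it. Chemokines are small secreted proteins that bind G protein-coupled receptors on leukocytes and guide their migration. They are grouped into CC and CXC families by the spacing of conserved cysteines, and each acts through 1 or a few receptors. Resident macrophages of the serous cavities are a known source of chemokines for monocytes, neutrophils and B cells.

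The targeted gene itself did not separate the genotypes in the direction of the labels. *Rxra* had normalised read counts of 31 and 30.9 in the WT libraries and 50.4 and 77 in the Rxra-KO-labelled libraries, a log2 fold change of 0.99 that did not pass (limma adjusted *p* = 0.183). Gene-level values pool the deleted and the retained exons, so they do not check the deletion, and the second genotype is called by its label throughout. *Lyz2*, the gene at whose locus the Cre is inserted, fell by 1.03 on the log2 scale (adjusted *p* = 0.00163). Of 17 measured genes marking large peritoneal macrophages, 13 fell and 0 rose by limma, where 0.969% of all genes fell and 1.32% rose. *Gata6*, which encodes the transcription factor of this cell type, was counted at 35 and 65 reads in WT and 3 and 24 in the Rxra-KO-labelled libraries. *Icam2*, which encodes the sort marker CD102, had normalised counts of 1092 and 1301 in WT and 466 and 539 in the Rxra-KO-labelled libraries. It was thus well expressed in all 4 libraries but called lower in the second genotype (log2 fold change -1.25, limma adjusted *p* = 5.30e-06). The paper also reports less CD102 on such cells by flow cytometry. Whether the gate took the same cells in both genotypes was not tested. *Adgre1*, which encodes F4/80, was not analysed here. Depth was low, with 629030 to 1047021 reads per library, and 1 read was worth between 0.993 and 1.51 normalised counts. A count of 3 reads or fewer is treated as the floor, and no fold is read for a gene that is at or below it in both groups, whose fitted values are only drawn in the plots.

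Of the chemokines, *Ccl6* and *Ccl9* carried most of the difference between the groups. The sum of the 9 members was 1313 and 871 normalised counts in WT and 3738 and 4377 in the Rxra-KO-labelled libraries. *Ccl6* and *Ccl9* made up 57.9% and 68.9% of that sum in WT and 85.4% and 84.4% in the other group. Without these 2 genes the sums overlapped, at 553 and 271 in WT and 544 and 681 in the Rxra-KO-labelled libraries. *Cxcl13* alone gave 329 and 49.4 of these sums in WT, and 165 and 141 in the Rxra-KO-labelled libraries. The members took 0.132% and 0.0842% of all reads in WT, against 0.394% and 0.421%. By limma, with an adjusted *p* under 0.05 and a log2 fold change of at least 0.6, 4 of the 9 members rose (*Ccl2*, *Ccl6*, *Ccl9* and *Ccl24*) and 5 were not called, where 1.32% of all genes rose. None fell by limma, edgeR or DESeq2, where 0.969% of all genes fell by limma, and 0 of the 9 were lower at an unadjusted *p* under 0.05. Both Rxra-KO-labelled libraries were above both WT libraries for 6 members, against 18.8% of all genes, and below them for 1 member, against 19.3%. The median log2 fold change of the members was 1.36, or 1.40 without *Ccl3*, which stayed at the floor in every library, and that of all genes was 0.02. Since these are bulk samples, more cells with a transcript and more transcript per cell cannot be told apart, nor can fewer cells and less transcript per cell.

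**Figure D1:**
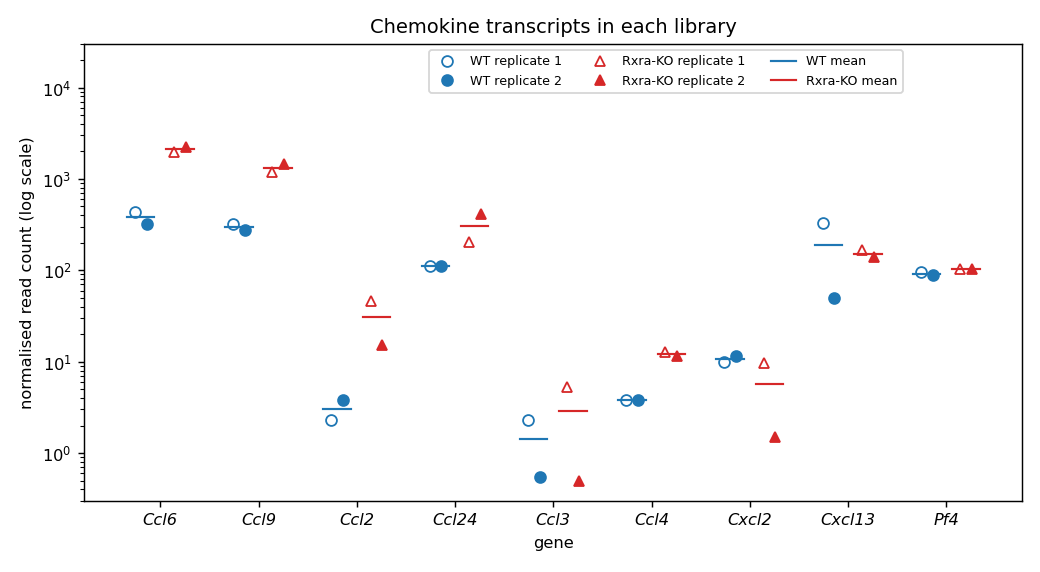
Normalised read count of each chemokine (log axis) in the 2 WT libraries (blue circles) and the 2 Rxra-KO-labelled libraries (red triangles), with the mean of each genotype as a line; a gene with 0 reads is drawn at its deposited value, which is above 0. The genotypes are apart for *Ccl6* (440 and 321 against 1991 and 2232) and *Ccl9*, whereas the WT libraries lie on either side of both Rxra-KO-labelled libraries for *Cxcl13*.

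*Ccl6* and *Ccl9* encode rodent CC chemokines that act through CCR1. *Ccl6* was counted at 290 and 295 reads in WT against 1322 and 2247 in the Rxra-KO-labelled libraries, which are normalised counts of 440 and 321 against 1991 and 2232. Both Rxra-KO-labelled libraries were far above both WT libraries, with means of 380 ± 84.3 and 2112 ± 170 (SD, n = 2 libraries each). The log2 fold change was 2.49 (SE 0.22, 95% interval 2.06 to 2.91, limma adjusted *p* = 2.18e-21), a ratio of the means of 5.55. *Ccl9* was counted at 211 and 257 reads in WT against 798 and 1474 in the Rxra-KO-labelled libraries, with normalised counts of 320 and 279 against 1202 and 1464. Again the genotypes did not overlap, and the means were 299.8 ± 28.9 and 1333 ± 185. The log2 fold change of *Ccl9* was 2.15 (SE 0.22, 95% interval 1.71 to 2.58, limma adjusted *p* = 2.48e-16), a ratio of the means of 4.45. The ratio of *Ccl6* to *Ccl9* within a library was 1.37 and 1.15 in WT and 1.66 and 1.52 in the other group, so it moved less between the groups than either level did.

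In the RefSeq annotation of GRCm38.p6, *Ccl9* and *Ccl6* are direct neighbours on chromosome 11, and *Ccl6* is followed by *Ccl3* and *Ccl4*, so the 2 members with the smallest adjusted *p* and 2 members that were not called share 1 cluster. The 250 bases before the start of *Ccl6* and of *Ccl9* are shown because these neighbours rose together. Both genes lie on the minus strand, and both stretches are given 5′ to 3′ in the direction of transcription, *Ccl6* at chr11:83593088-83593337 and *Ccl9* at chr11:83578637-83578886. Capitals mark the bases that are identical in the best local alignment of the pair.
Ccl6: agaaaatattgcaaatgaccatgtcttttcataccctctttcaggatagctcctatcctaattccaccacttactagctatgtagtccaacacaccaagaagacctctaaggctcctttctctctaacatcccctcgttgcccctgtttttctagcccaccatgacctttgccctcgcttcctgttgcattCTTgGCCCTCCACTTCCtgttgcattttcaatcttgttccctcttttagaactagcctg
Ccl9: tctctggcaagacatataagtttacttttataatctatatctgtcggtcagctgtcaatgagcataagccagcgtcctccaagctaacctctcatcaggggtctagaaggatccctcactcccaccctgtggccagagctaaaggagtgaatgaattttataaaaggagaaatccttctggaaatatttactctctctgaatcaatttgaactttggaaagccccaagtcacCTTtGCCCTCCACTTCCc
The alignment covered 17 bases, from -59 to -43 before the start of *Ccl6* and from -18 to -2 before that of *Ccl9*, with 16 identical bases (94.1%) and no gap. The windows were searched on both strands for AGGTCA, the core hexamer of nuclear receptors, for the DR1 element that RXR homodimers bind, for TGANTCA of AP-1 and GGANTTTCC of NF-kB, for the PU.1 hexamer GAGGAA, for TTGCNNAA of C/EBP factors, for AGATAA, which zinc finger factors such as GATA6 recognise, and for the TATA box, searched as TATAAA. Positions count back from -1 at the base before the start and name the first base of a match. *Ccl6* held AGGTCA at -88 and no other of these motifs. *Ccl9* held TGANTCA at -53 and TATAAA at -224, -94 and -92, of which the pair at -94 and -92 overlap on opposite strands, and no motif was found in both genes. Of the 32851 promoter windows of the same length, 14.0% held AGGTCA, 6.75% TGANTCA and 12.4% TATAAA, and 0.0335% held the DR1 element. The RefSeq table had windows for 6 of the 10 members, and among the 4 others *Cxcl2* held GGANTTTCC at -96 (1.07% of all windows), *Ccl3* held AGGTCA at -186 and GAGGAA at -33 (23.3% of all windows), *Cxcl13* held AGGTCA at -87, TTGCNNAA at -164 (9.56% of all windows) and TATAAA at -46, and *Pf4* held GAGGAA at -8 and TTGCNNAA at -212. AGATAA, found in 9.99% of all windows, was in none of the 6. These are matches of letters and show no binding.

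*Ccl2* encodes the main ligand of CCR2, the receptor by which monocytes leave the bone marrow and enter tissues. It was near the floor in WT, with 1 and 3 reads, and had 30 and 15 reads in the Rxra-KO-labelled libraries, or normalised counts of 2.27 and 3.80 against 45.9 and 15.4. Every Rxra-KO-labelled library was above both WT libraries, and the 45 reads of the one genotype against 4 of the other gave a ratio of 10.7 after scaling, with an exact 95% counting interval of 3.88 to 40.8. The fitted log2 fold change was 2.81 (SE 0.67, 95% interval 1.48 to 4.13, limma adjusted *p* = 0.0033). The call rested on 1 library: without Rxra-KO replicate 1 the log2 fold change was 2.05 with an adjusted *p* of 0.666, and without Rxra-KO replicate 2 it was 3.57. It was also lost with DESeq2 on the recovered reads (adjusted *p* = 0.0543), and over all 20 alternatives the adjusted *p* ran from 0.000346 to 0.666.

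*Ccl3* and *Ccl4* encode inflammatory CC chemokines, of which CCL3 binds CCR1. *Ccl3* was counted at 1 and 0 reads in WT against 3 and 0 in the Rxra-KO-labelled libraries, so it was at or below the floor everywhere and no fold is read (limma adjusted *p* = 0.951). *Ccl4* was counted at 2 and 3 reads in WT against 8 and 11 in the Rxra-KO-labelled libraries, with normalised counts of 3.79 and 3.80 against 12.8 and 11.4. The genotypes did not overlap, and 19 reads against 5 gave a ratio of 3.60 with an exact 95% counting interval of 1.30 to 12.3. *Ccl4* did not pass the test over all genes (log2 fold change 1.45, SE 0.74, 95% interval -0.00014 to 2.90, limma adjusted *p* = 0.494). In the annotation the gene spans of *Ccl3* and *Ccl4* overlap, and the library kit does not mark the strand of a transcript. Reads were assigned by transcript sequence, however. In GENCODE M21, 0 stretches of 31 bases in the transcripts of either gene were shared with another gene.

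*Ccl24* encodes eotaxin-2, which attracts eosinophils through CCR3 and is known as a product of alternatively activated macrophages. Its normalised counts were 111 and 112 in WT, from 73 and 103 reads, and 203 and 409 in the Rxra-KO-labelled libraries, from 134 and 411 reads. The WT libraries were nearly alike and both Rxra-KO-labelled libraries were above them, but these 2 differed from each other, with means of 112 ± 0.704 and 306 ± 146 (SD, n = 2 libraries each). The log2 fold change was 1.36 (SE 0.26, 95% interval 0.85 to 1.86, limma adjusted *p* = 4.45e-05), a ratio of the means of 2.73. Without Rxra-KO replicate 2 it was 0.85 and did not pass (adjusted *p* = 0.303, within a range of 3.36e-07 to 0.544 over 20 alternatives).

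The 3 CXC members did not pass the test. *Cxcl13* encodes the CXCR5 ligand that draws B cells to the serous cavities and lymphoid follicles. Its normalised counts were 329 and 49.4 in WT, from 217 and 45 reads, and 165 and 141 in the Rxra-KO-labelled libraries, from 109 and 141 reads. The WT libraries lay above and below the other group, with means of 189 ± 198 and 153 ± 17.2, and the log2 fold change was 0.25 (SE 0.29, 95% interval -0.33 to 0.83, limma adjusted *p* = 0.896). With either WT library left out the gene was called, in opposite directions: the log2 fold change was 1.61 without WT replicate 1 (adjusted *p* = 0.000792) and -1.11 without WT replicate 2 (adjusted *p* = 0.044), while it was -0.28 with edgeR, and over 20 alternatives the adjusted *p* ran from 0.000792 to 0.9998. WT replicate 1 also had more of the markers of LYVE1-positive resident macrophages than WT replicate 2, with summed normalised counts of 668 and 146 for all 10 genes of that list. The same sums were 12823 and 8755 in the Rxra-KO-labelled libraries, whose *Cxcl13* counts lay between those of the WT libraries. The part of these cells in the *Cxcl13* level was not tested.

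*Pf4* encodes platelet factor 4, a CXC chemokine of platelet granules that is also found in tissue macrophages. Its normalised counts were 94.6 and 89.5 in WT and 103 and 103 in the Rxra-KO-labelled libraries, from 62, 82, 68 and 103 reads. The genotypes did not overlap, yet the difference was small, with a log2 fold change of 0.16 (SE 0.29, 95% interval -0.41 to 0.73, limma adjusted *p* = 0.954). The 7 platelet and megakaryocyte markers stayed under 10 reads on average, with summed normalised counts of 20.4 and 13.6 in WT and 23.3 and 34.3 in the Rxra-KO-labelled libraries. Each of these sums was below the level of *Pf4* alone in the same library. *Cxcl2* encodes a CXCR2 ligand that attracts neutrophils and is induced rapidly by inflammatory signals. It was counted at 6 and 10 reads in WT against 6 and 1 in the Rxra-KO-labelled libraries, or normalised counts of 9.84 and 11.4 against 9.79 and 1.49, and its mean and its fitted value were both lower, which held for no other member. Its values in WT replicate 1 and Rxra-KO replicate 1, with 6 reads each, were nearly the same. This difference did not pass (log2 fold change -1.16, SE 0.75, 95% interval -2.63 to 0.31, limma adjusted *p* = 0.671), and without Rxra-KO replicate 2 it was -0.10.

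**Figure D2:**
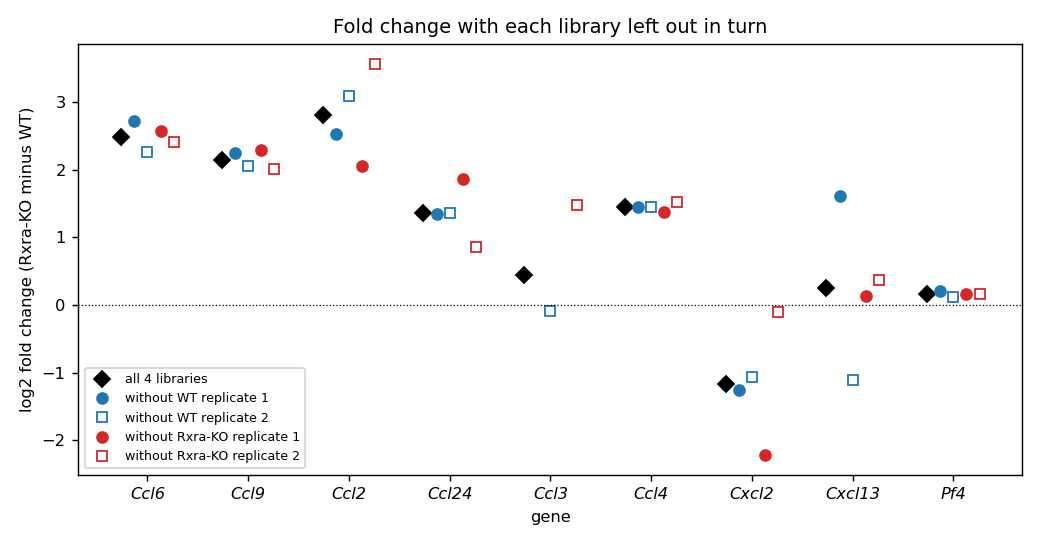
Log2 fold change (Rxra-KO minus WT) of each member with all 4 libraries (black) and with each library left out in turn (blue circle and square without WT replicate 1 and 2, red circle and square without Rxra-KO replicate 1 and 2); *Ccl3* has no value without WT replicate 1 or Rxra-KO replicate 1, where it failed the filter on low values. *Ccl6* stays between 2.26 and 2.71 and *Ccl9* between 2.00 and 2.29, whereas *Cxcl13* runs from -1.11 to 1.61.

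To compare levels between genes, the normalised counts were divided by the length of the longest coding transcript of each gene. In WT, the mean level per kb was 264 for *Ccl6*, 165 for *Cxcl13*, 157 for *Pf4*, 99.7 for *Ccl9* and 86.3 for *Ccl24*, followed by 5.74 for *Ccl4*, 5.71 for *Cxcl2*, 3.73 for *Ccl2* and 1.84 for *Ccl3*. The 2 WT libraries put *Cxcl13* at 286 and 42.9 per kb, a spread that takes in *Pf4*, *Ccl9* and *Ccl24*, and *Ccl4* and *Cxcl2* could not be ordered. In WT the transcripts of *Ccl6*, *Pf4*, *Ccl9*, *Ccl24* and *Cxcl13* were thus well above those of *Ccl2*, *Ccl3*, *Ccl4* and *Cxcl2*. In the Rxra-KO-labelled libraries the mean levels per kb were 1466 for *Ccl6*, 444 for *Ccl9*, 236 for *Ccl24*, 175 for *Pf4*, 133 for *Cxcl13*, 37.7 for *Ccl2*, 18.3 for *Ccl4*, 3.76 for *Ccl3* and 3.03 for *Cxcl2*. *Ccl6* stayed first, *Ccl9* went from the fourth place to the second by the means. *Cxcl13* went from the second to the fifth, but in WT replicate 2 alone it was already below *Ccl6*, *Pf4*, *Ccl9* and *Ccl24*. The spreads of *Ccl24* (156 and 316 per kb) and *Pf4* overlapped in this genotype, as did those of *Ccl2* and *Ccl4* and those of *Ccl3* and *Cxcl2*. Of the stretches of 31 bases in the transcripts, 1.28% were shared with 1 other gene for *Ccl6*. For *Ccl9*, 4.03% were shared, and the genes sharing any of them numbered 1918. For *Cxcl2*, 4.30% were shared, all with 1 other chemokine ligand, so the few *Cxcl2* reads could be split between it and that ligand.

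No chemokine ligand outside the members was called. Of 31 further ligands, 17 were in the table, and limma, edgeR and DESeq2 called 0 of them in either direction, where limma called 2.29% of all genes. At an unadjusted *p* under 0.05, 1 was higher and 1 lower, where 10.1% of all genes passed in either direction. Their median log2 fold change was 0.17, or -0.04 without the 8 ligands that had at most 3 reads in every library, and 13 of the 17 had fewer than 10 reads on average.

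Among 23 chemokine receptors, 19 were in the table, and 1 rose and 0 fell by limma, against 1.32% and 0.969% of all genes. *Ccr2*, the receptor of CCL2, had normalised counts of 76.5 and 25.5 in WT and 376 and 655 in the Rxra-KO-labelled libraries (log2 fold change 3.46, SE 0.27, adjusted *p* = 5.64e-25). Leaving out WT replicate 1 gave it a log2 fold change of 4.23 and leaving out WT replicate 2 one of 2.68, both called. Ligand and receptor of this pair were therefore both higher in every Rxra-KO-labelled library than in either WT library. The receptor of CCL6 and CCL9, *Ccr1*, was not called, with normalised counts of 136 and 91.7 against 103 and 187 (log2 fold change 0.32, 95% interval -0.23 to 0.86, adjusted *p* = 0.815). *Cxcr2* had 105 and 89.5 against 89.6 and 102 (log2 fold change -0.02, 95% interval -0.59 to 0.55, adjusted *p* = 0.994). *Ccr3*, the receptor of CCL24, was counted at 0 and 0 reads in WT against 3 and 3 in the Rxra-KO-labelled libraries, which is at the floor, and *Cxcr5*, that of CXCL13, had 1 and 4 reads against 11 and 4 (adjusted *p* = 0.676). *Cxcr3* was not analysed here.

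**Figure D3:**
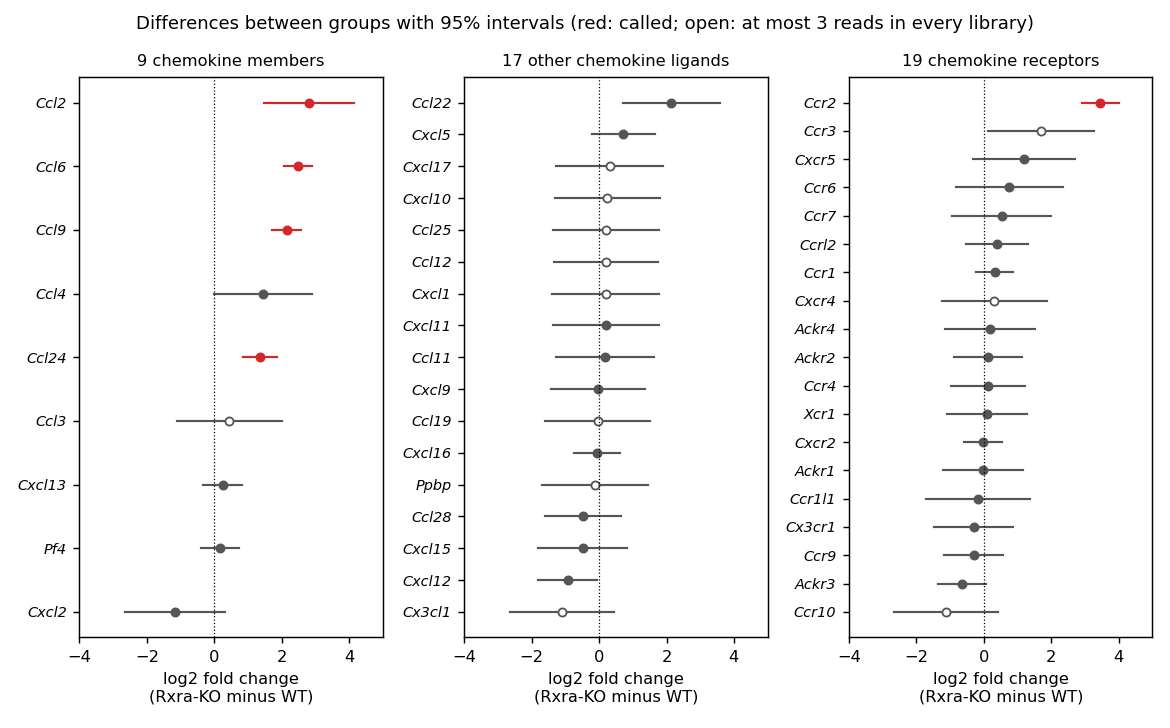
Log2 fold change (Rxra-KO minus WT) with its 95% interval from limma for the 9 members, 17 other chemokine ligands and 19 chemokine receptors; red genes were called and open points had at most 3 reads in every library. Among the ligands only *Ccl2*, *Ccl6*, *Ccl9* and *Ccl24* are red, and among the receptors *Ccr2*.

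Markers of other macrophages moved with the genotype label as well. All 10 genes listed as marking LYVE1-positive resident macrophages rose by limma, where 1.32% of all genes rose, but the list was chosen with earlier results known. The paper names 3 of them, *Mrc1*, *Fcrls* and *Cd209d*, among genes usually found in small peritoneal macrophages, so the list is not specific to 1 cell type. Summed normalised counts of the list were 146 to 668 in WT and 8755 to 12823 in the Rxra-KO-labelled libraries. *Cd209f*, a C-type lectin, had 10 and 1 reads in WT against 1759 and 1484, and *Cd209d* had 0 reads in both WT libraries. Of 11 measured genes for small peritoneal or monocyte-derived macrophages, 5 rose by limma, namely *Ccr2*, *Retnla*, *Clec10a*, *Cd209a* and *Irf4*. The other 6 did not pass, and 4 of the 11 had lower fitted values, namely *Fcgr4* (4 and 43 reads against 2 and 3), *Ly6c2*, *Cx3cr1* and *Dpp4*, named after their values were seen. The summed counts of the list were 178 to 313 in WT and 2223 to 3905 in the other group, mostly from *Retnla* and *Ccr2*, and the remaining 9 genes summed to 90.1 to 121 and 237 to 258. The large peritoneal macrophage list summed to 48460 and 48789 in WT and 25053 and 26730 in the Rxra-KO-labelled libraries. *Ccl6* and *Ccl9* differed by 5.55 and 4.45 times between genotype means, and the part of these cell types in the chemokine levels was not tested.

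Lists for other cells summed to at most 124 normalised counts in any library. The sums cover measured genes only, 2 of 6 listed for neutrophils, 3 of 5 for eosinophils and 1 of 5 for erythroid cells. Among the listed genes, *S100a8*, *S100a9*, *Ighm* and *Trac* were not analysed here. A low sum therefore does not show that few such cells were present. The B cell list of 5 measured genes summed to 19.0 to 22.0 in WT and 26.3 to 39.9 in the Rxra-KO-labelled libraries, the T cell list of 4 to 41.2 to 43.9 and 34.8 to 60.2, the neutrophil list of 2 to 5.42 to 7.57 and 18.1 to 20.9, and the dendritic cell list of 6 to 46.9 to 55.3 and 99.4 to 124. The eosinophil list of 3 genes summed to 87.3 to 97.7 in WT and 71.5 to 84.9 in the other group, the mast cell list of 5 to 23.3 to 29.5 and 16.4 to 21.8, the mesothelial list of 5 to 64.3 to 93.8 and 58.0 to 67.0, and the 1 measured erythroid gene to 2.27 to 2.71 and 2.26 to 12.4. By limma, 2 genes of these lists rose and 0 fell, where 1.32% of all genes rose and 0.969% fell. The 2 were *Cd209a*, which is also in the monocyte-derived list, and *Cd2*, a lymphocyte adhesion gene. *Cd2* had 0 reads in WT against 11 and 6 in the Rxra-KO-labelled libraries. It was named because it made up this count and after its value was seen. Each of these sums was below the level of *Ccl9* in the same library. The B cell, neutrophil and dendritic cell sums were higher in both Rxra-KO-labelled libraries than in both WT libraries. Eosinophil and mast cell sums were lower in both. In the Rxra-KO-labelled libraries the dendritic cell sums were near the level of *Pf4* and above those of *Ccl2* and *Ccl4*. *Cd209a* alone gave 65.5 and 80.0 of these dendritic cell sums, and 22.0 and 14.6 of those in WT. The part of these cells in the chemokine levels was not tested.

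Many chemokine genes are known to be induced together with immediate early genes and with targets of NF-kB, so both were counted. Of 13 immediate early genes, 1 rose and 1 fell by limma, where 1.32% of all genes rose and 0.969% fell. *Egr2*, which encodes a zinc finger transcription factor, was counted at 25 and 10 reads in WT against 165 and 58 in the Rxra-KO-labelled libraries. *Dusp1*, a phosphatase of MAP kinases, had 55 and 25 against 15 and 12. The summed level of the list overlapped between the genotypes, at 317 to 351 normalised counts in WT and 252 to 471 in the Rxra-KO-labelled libraries. Of 12 measured genes of the NF-kB response limma called 0, where it called 2.29% of all genes. At an unadjusted *p* under 0.05, 2 were higher and 1 lower, where 10.1% of all genes passed in either direction. The 12 genes summed to 263 to 322 in WT and 288 to 404 in the other group. *Tnf*, chosen after its value was seen as the cytokine of this list, was counted at 0 and 1 reads in WT against 1 and 0 in the Rxra-KO-labelled libraries.

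**Figure D4:**
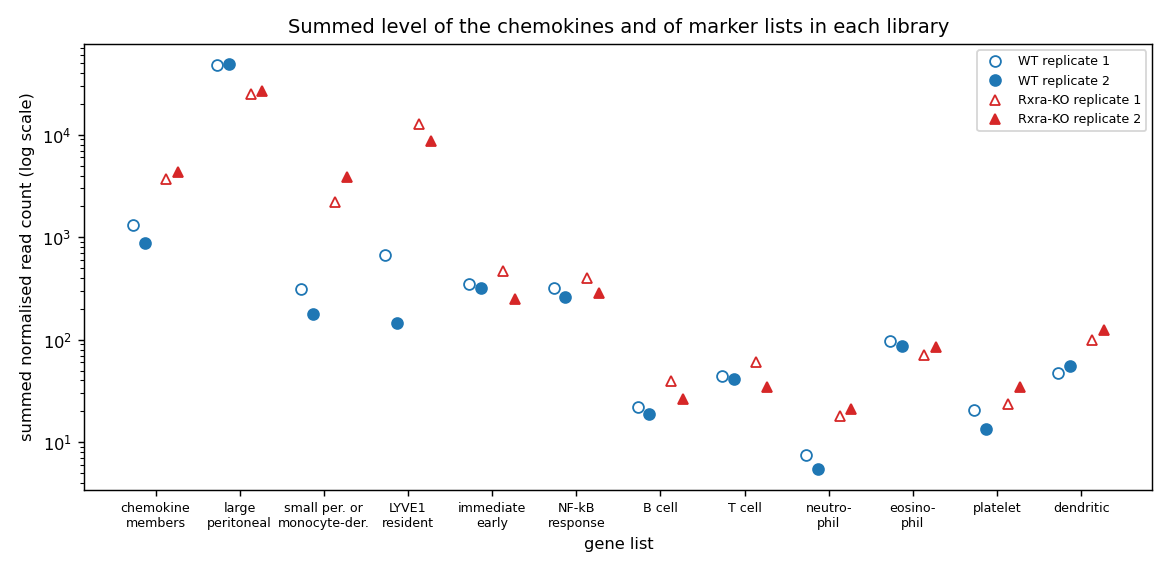
Summed normalised read count (log axis) of the 9 chemokines and of marker and response lists in the 2 WT libraries (blue circles) and the 2 Rxra-KO-labelled libraries (red triangles). The chemokine sum (1313 and 871 against 3738 and 4377) separates the genotypes in the same direction as the LYVE1 and monocyte-derived lists and opposite to the large peritoneal list.

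With 2 libraries per genotype an exact permutation test over libraries cannot give a two-sided *p* below 0.333, so every call leans on the variance that limma pools over genes of like level. Without the mean-variance trend in that step limma called 0 genes and 0 members (adjusted *p* between 0.423 and 0.544 for the 4 called members, with 1579 genes and 5 members at an unadjusted *p* under 0.05), whereas edgeR and voom on the recovered reads called the same 4 members and DESeq2 called *Ccl6*, *Ccl9* and *Ccl24*.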

How the data were processed

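Large peritoneal macrophages were lysed after the second sort, and libraries were made with the SMART-Seq v4 kit, which has no molecular identifiers and does not mark strand, and run on a NextSeq-500. The authors quantified transcripts with kallisto 0.43.0, summed them to genes with tximport and scaled them with TMM in limma. The reference named is GRCh38, a human build, while the table holds mouse symbols. Per the study's reporting, samples that stood apart from their group in diagnostic plots were left out. The deposited values are signal (normalised read counts), and each is a whole number of reads plus 0.5 times a library-specific step, in 100% of values within a tolerance of 0.01. TMM and voom of these reads gave the deposited values back with a largest relative difference of 9.94e-10. The table also holds genes below the detection limits stated in the methods.

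Values were tested in R 4.3.3 with limma 3.58.1 on log2(value + 1), with a mean-variance trend, no covariate and Benjamini-Hochberg adjustment over all 18364 genes, and fold changes are on that scale, which understates those of low genes. A filter of at least 1 in at least 2 libraries removed 0 genes. Standard errors drew on 2 residual and 227 prior degrees of freedom. Calls required an adjusted *p* under 0.05 together with a log2 fold change of 0.6 or more in either direction. edgeR 4.0.16, DESeq2 1.42.0 and voom were run on the recovered reads as alternatives. Intervals on read counts are exact binomial and cover counting error only. Lengths came from GENCODE M21, and promoters and gene order from RefSeq (GRCm38.p6). The members and all lists were chosen with earlier results of these data known. Named were all members, their receptors (1 of them is not reported here), called ligands and receptors, *Rxra*, *Lyz2*, and at most 5 called genes per list with a mean of at least 10 and the largest change, except where stated; *Icam2*, *Adgre1* and *Gata6* were added as a check of the sort.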

Additional observations from a re-analysis of the deposited data

How the results depend on the processing

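The calls of *Ccl6* and *Ccl9* were lost only without the mean-variance trend among 20 alternatives, and those of *Ccl2* and *Ccl24* also as given with their values. Without the trend, limma called 0 members, 0 receptors and 0 of all genes; with a filter of at least 10 in 2 libraries as well, an alternative added after seeing the data, it called 0 members, 0 receptors and 26 genes, against 4, 1 and 421. DESeq2 called 235 genes. With each library left out in turn, 0 to 1 members were called lower (*Cxcl13*, without WT replicate 2), and 167 to 381 genes were called, with 167 without Rxra-KO replicate 1 and 240 without WT replicate 2. The lone sample of a genotype was then assumed to vary like the others. *Cxcl13* changed sign with edgeR (-0.28), with edgeR and DESeq2-type size factors (-0.31) and with DESeq2 (-0.33), and ran from -1.11 to 1.61 with 1 library left out, while the fitted value of *Ccl3*, at the floor in both groups and read as no fold, ran from -0.095 to 1.48. The cause was not tested. The median of the members stayed between 0.96 (pseudocount 5) and 1.65 (DESeq2). The upper end was the fitted value of *Ccl3* itself, a gene at the floor for which no fold is read. The other ligands stayed at 0 calls in all alternatives. With the filter of at least 10, *Ccl3* and *Cxcl2* were not tested.

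The titles number the libraries but do not say whether those of the same number were handled together. The correlation of same-numbered deviations was 0.0629 over 10049 genes, so pairing was neither shown nor excluded. A fit with the replicate number as a block called 540 genes, against 421 without it, with 4 members and 1 receptor, and it changed no call of a member. Depth limits *Ccl2*, *Ccl3*, *Ccl4* and *Cxcl2* most: of all genes, 9514 had fewer than 10 reads on average, as did 14 of the 421 called.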

Other observations

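Of the ligands outside the members, *Ccl22*, which attracts T cells through CCR4, had the highest log2 fold change and was chosen after its values were seen. Its reads numbered 1 and 3 in WT and 13 and 13 in the Rxra-KO-labelled libraries, a ratio of 6.15 after scaling with an exact 95% counting interval of 2.14 to 24.3. It did not pass over all genes (log2 fold change 2.15, limma adjusted *p* = 0.112).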
